A study of Mus musculus with 12 samples.

Results

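Integrins, laminins and the proteases of the extracellular matrix were followed through m6A peaks of mouse liver RNA. An m6A peak is a stretch of transcript recovered with an antibody against N6-methyladenosine, a methyl mark on adenosines of RNA. Members were taken by gene symbol: every peak annotated to an integrin alpha or beta gene, a laminin chain, a gene of the Adam, Adamts, Mmp or Timp families, Nid1, Nid2, Hspg2 or Fn1. This gave 139 of 37118 peaks and 50 of 13060 annotated genes, and the rule reads gene symbols only. The symbols also took in Itgb1bp1 and Itgb3bp, which encode proteins that bind an integrin tail but are not subunits, and Adamtsl2, which encodes an ADAMTS-like protein that lacks the protease domain.

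The mice were wild-type C57BL/6 males of 6 to 8 weeks, and the livers carry the label day 90. Control animals were given 0 mg/kg/day and cadmium animals 20 mg/kg/day of CdCl2 by gavage, and the comparison asks which peaks differ in livers exposed to the metal. Each group had 3 immunoprecipitated samples, labelled as batches 1, 2 and 3. The labels give 6 animals per group and do not say how the samples relate to them, so p-values measure the spread between these samples, which may be technical. Counts over all peaks totalled 40174736 to 52338612 per sample, and the members held 0.283% to 0.323% of them. Input RNA was not used here, so a difference in peak counts can lie in the amount of a gene's RNA, in the methylated share of it, or in both. The RNA came from whole liver, in which fewer cells of a type and less RNA per cell cannot be told apart.

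Integrins are pairs of an alpha and a beta subunit that hold cells to the matrix or to other cells, and the alpha subunit sets much of the ligand choice. Laminins, each built of an alpha, a beta and a gamma chain, assemble into basement membranes, where nidogens and the proteoglycan perlecan tie them to other components. ADAM proteases shed proteins from cell surfaces, secreted ADAMTS proteases cut proteoglycans and other matrix proteins, and matrix metalloproteinases (MMPs) degrade matrix and are held in check by the inhibitors called TIMPs. In liver, stellate cells and sinusoidal endothelium are known makers of matrix, and leukocyte integrins mark immune cells.

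The bases upstream of 4 member genes called on their summed counts (below) are shown as examples, and 3 of these genes carry a peak at or close to the annotated start. Hspg2, also called, has its first peak centred 177.5 bp past the gene start and is not printed. The bases were read from the RefSeq promoter table (GRCm38.p6, the assembly of mm10), which holds 35 of the 50 member genes. The windows are chr13:13437352-13437601 for Nid1, chr16:33829415-33829664 for Itgb5, chr2:79255176-79255425 for Itga4 and chr8:95352046-95352295 for Mmp15, all on the + strand. Only the 250 bases before the start are printed, 5′ to 3′. Capitals mark, on either strand, TGCNCNC, and GGGCGG, a GC box that Sp1 binds. TGCNCNC is a looser form of TGCRCNC (R is A or G), the core of the metal response element that the factor MTF1 binds. Matches with T or C at that place, such as TGCTCGC before Nid1, are not that core. The marked matches do not overlap each other.
Nid1: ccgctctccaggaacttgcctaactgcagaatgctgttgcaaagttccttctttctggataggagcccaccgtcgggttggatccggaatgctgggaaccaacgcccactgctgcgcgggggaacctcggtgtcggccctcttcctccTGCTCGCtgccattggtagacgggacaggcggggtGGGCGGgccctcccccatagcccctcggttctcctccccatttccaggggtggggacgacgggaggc
Itgb5: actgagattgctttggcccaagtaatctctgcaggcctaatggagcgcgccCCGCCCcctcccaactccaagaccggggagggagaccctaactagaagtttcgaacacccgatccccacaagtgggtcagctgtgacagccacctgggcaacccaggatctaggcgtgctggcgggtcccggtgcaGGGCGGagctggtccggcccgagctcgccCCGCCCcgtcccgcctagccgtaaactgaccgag
Itga4: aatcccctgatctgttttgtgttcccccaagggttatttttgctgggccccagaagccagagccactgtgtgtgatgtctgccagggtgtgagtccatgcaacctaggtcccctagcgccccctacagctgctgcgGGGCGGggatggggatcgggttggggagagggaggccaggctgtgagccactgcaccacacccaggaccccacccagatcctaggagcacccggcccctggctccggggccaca
Mmp15: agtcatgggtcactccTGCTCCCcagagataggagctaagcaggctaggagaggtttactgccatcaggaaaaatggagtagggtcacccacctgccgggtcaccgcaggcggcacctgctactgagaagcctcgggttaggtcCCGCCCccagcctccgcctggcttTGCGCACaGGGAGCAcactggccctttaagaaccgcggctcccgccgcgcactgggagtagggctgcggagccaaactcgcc
The looser form TGCNCNC was matched 3 times before Mmp15, 1 time before Nid1 and 0 times before Itgb5 and Itga4. On summed counts Mmp15 was lower and the other 3 genes were higher in cadmium livers. Of the other called genes with a window, Hspg2 (2 matches) and Adamts9, Itgax and Lamb1 (1 each) were higher. Itga1 (0 matches) was lower, and a relation of matches to direction was not tested. Of 37 windows of member genes, 26 (70.3%) held TGCNCNC, against 44.4% of all 32841 windows of that length. The GC box was in 23 member windows (62.2%) against 32.8% of all, and the AP-1 site TGANTCA in 1 (2.7%), that of Itgax, against 6.75% of all. The windows were not matched for base composition, and a match describes letters, not binding. In the data, the first peak of Itgb5 (chromosome 16, 33829696 to 33829940) and that of Mmp15 (chromosome 8, 95352310 to 95352839) began within the first 50 transcribed bases, and the centre of the first Nid1 peak lay 199.5 bp past the gene start.

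Member peaks were more often higher than lower in cadmium livers. All 139 passed the filter on low counts, and 15 were called (10.8%), 14 higher and 1 lower. Among all tested peaks 6.27% were called, 3.55% higher and 2.72% lower. A call is an adjusted p below 0.05 in edgeR's quasi-likelihood test with Benjamini-Hochberg adjustment over all 37088 tested peaks. The median log2 change (cadmium over control) of the members was 0.16, with 96 above 0, and that of all tested peaks was -0.003. All 3 cadmium samples lay above all 3 control samples at 42 of the 139 member peaks, whereas 14.4% of all peaks did so. They lay below them at 8 of the 139, against 12.5% of all peaks. An unadjusted p below 0.05 was found at 49 members (35.3%), against 21.8% of all peaks. At each of the 15 called peaks the groups did not overlap and the difference had the same sign in all 3 batches.

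**Figure D1:**
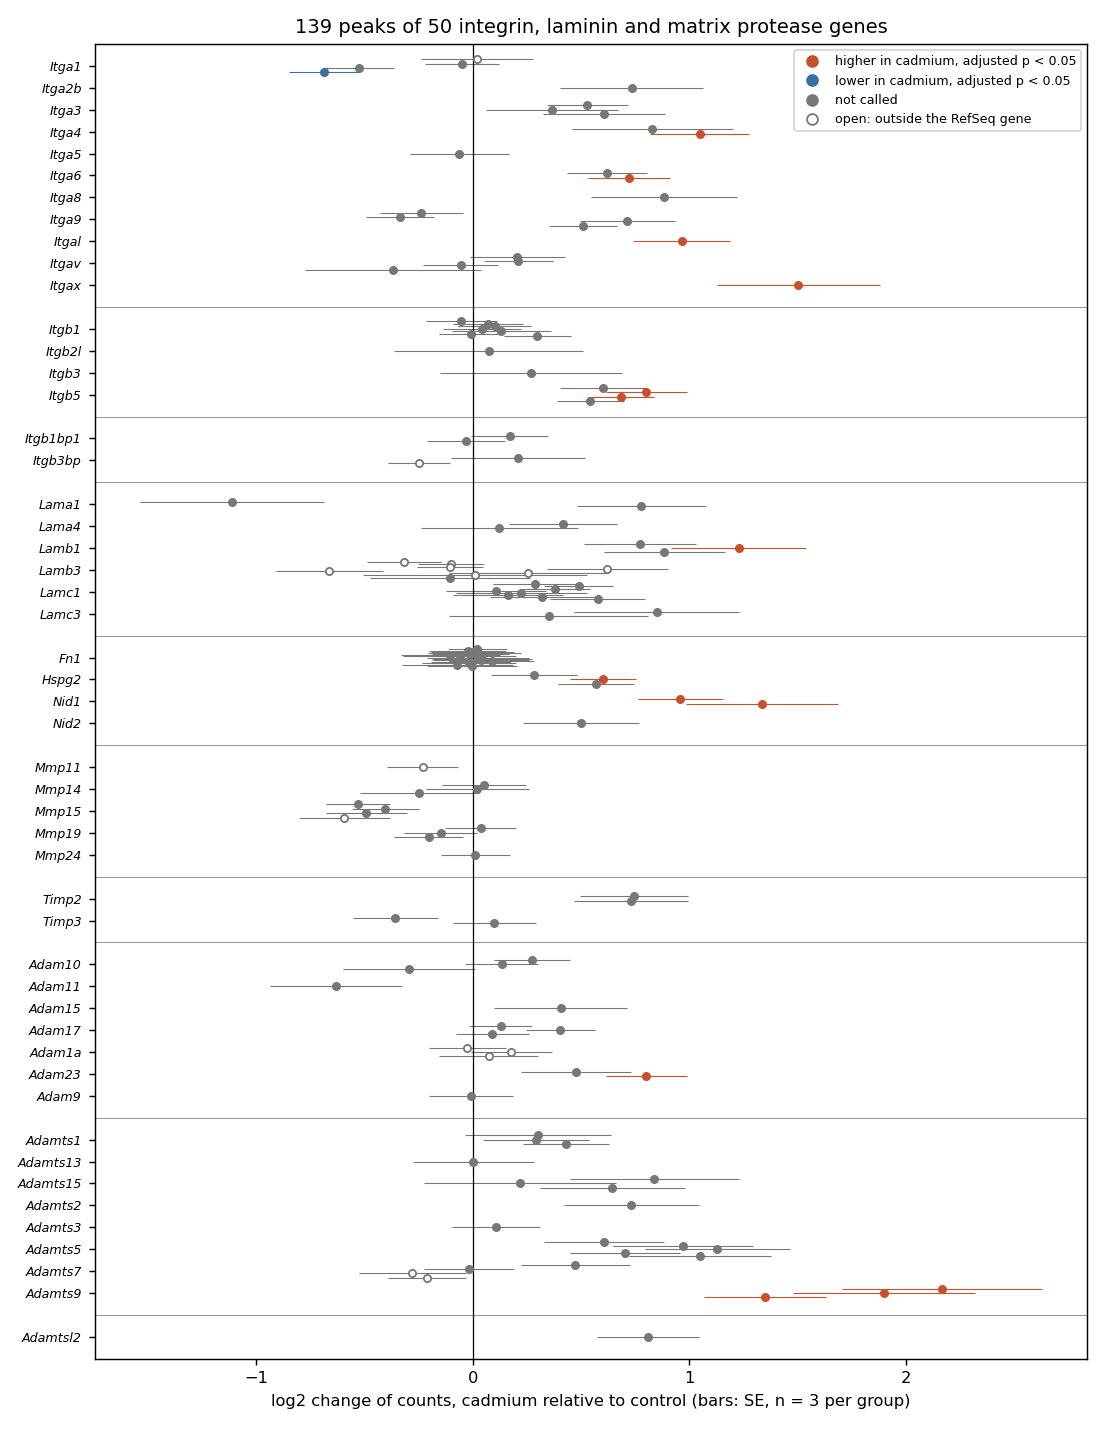
Log2 change of counts in cadmium relative to control livers at each of 139 member peaks, with 1 line per gene, families set apart by rules and bars giving the SE (n = 3 per group). The 14 peaks called higher lie right of 0, the 15 peaks of Fn1 sit close to 0, and open circles mark the 16 peaks that lie outside the RefSeq gene they are annotated to.

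These calls rest on all 6 samples. Leaving out cadmium replicate 3 left 0 members called by edgeR (33 at an unadjusted p below 0.05), where 1.46% of all peaks were called. That share was 6.27% with all 6 samples, so the loss of calls was not limited to members. For the other leave-outs the share of all peaks is not given, so their counts do not set the members apart. Without control replicate 3 the single called member was a Timp2 peak that the full comparison did not call. The count was 3 without control replicate 1 (peaks of Adamts9, Itga1 and Nid1) and 4 without cadmium replicate 1 (both Itgb5 peaks, Itgal and a Lama1 peak). It was 7 without cadmium replicate 2 and 8 without control replicate 2. DESeq2 called 23 members, among them all 15, against 9.92% of all peaks.

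Among the 24 peaks of 11 integrin alpha genes, 4 were called higher and 1 lower, with a median log2 change of 0.44. The peaks called higher belong to alpha subunits of leukocytes (Itga4, Itgal and Itgax) and to the laminin receptor subunit Itga6. Itga4 encodes alpha 4, which binds VCAM-1 and fibronectin on lymphocytes and monocytes. Its second peak (chromosome 2, 79327216 to 79327702) measured 1.75, 2.45 and 1.45 counts scaled to library size (CPM) in control and 4.18, 3.60 and 3.94 CPM in cadmium replicates 1 to 3. The lowest cadmium sample exceeded the highest control sample, with a log2 change of 1.05 (SE 0.23, adjusted p = 0.025). Itgal encodes alpha L (CD11a), the subunit with which lymphocytes bind ICAM-1. Its only peak (chromosome 7, 127333547 to 127333705) measured 2.22, 1.97 and 2.38 CPM in control and 3.12, 5.05 and 4.64 CPM in cadmium samples. Cadmium replicate 1 was the closest to the controls, and the log2 change was 0.97 (SE 0.22, adjusted p = 0.0306).

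Itgax encodes alpha X (CD11c), a subunit of dendritic cells and some macrophages, and had the largest rise of the integrin peaks. Its only peak (chromosome 7, 128150371 to 128150511) held 13, 26 and 11 reads in control and 40, 57 and 45 reads in cadmium replicates 1 to 3. These counts correspond to 0.265, 0.518 and 0.249 CPM in control and to 0.946, 1.03 and 0.979 CPM in cadmium samples. The cadmium samples lay close together at 2.84 times the control level (log2 change 1.5, SE 0.38, adjusted p = 0.0411). Itgb2, the beta 2 subunit that pairs with alpha L and alpha X, had no peak among the 37118. Itga6, whose product binds laminins, measured 2.65, 3.03 and 2.63 CPM in control and 5.04, 3.85 and 4.83 CPM in cadmium samples at its second peak (chromosome 2, 71856753 to 71857146). The groups did not overlap there (log2 change 0.72, SE 0.19, adjusted p = 0.0476, or 0.0582 with the batch as a block), and the neighbouring first peak of Itga6 had a log2 change of 0.62 (adjusted p = 0.0737).

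Each of these calls ended on removal of some single samples. Removing 1 sample, either replicate 1 or replicate 3 of either group, ended the Itga4 call (adjusted p 0.0604 to 0.104). That of Itgal ended on removal of any control sample or of cadmium replicate 2 or 3 (0.0614 to 0.141). For Itgax this held for any cadmium sample and for control replicates 1 and 3 (0.0756 to 0.135), and for Itga6 for any control sample and for cadmium replicates 1 and 3 (0.0641 to 0.193). The log2 changes over these leave-outs stayed above 0, from 0.65 for Itga6 to 1.92 for Itgax.

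Itga1, which encodes a collagen receptor subunit, carried the called fall, at a peak that cannot be assigned to it alone. The peak (chromosome 13, 115089206 to 115091376) also bears the symbols Pelo, Gm10734 and Gm49395, and in RefSeq Pelo lies inside Itga1 on the same strand. It measured 56.7, 76.9 and 58.5 CPM in control and 38.2, 42.6 and 38.4 CPM in cadmium samples. Control replicate 2 stood highest, with a log2 change of -0.69 at this peak (SE 0.16, adjusted p = 0.0317). Removing any cadmium sample, or control replicate 2 or 3, ended the call (0.0583 to 0.152). The neighbouring shared peak had a log2 change of -0.53 (adjusted p = 0.0833), whereas the peak at the other end of the gene that carries the Itga1 symbol alone and lies inside the gene had -0.05 (adjusted p = 0.902).

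The remaining alpha subunits were not called by edgeR without the batch block. Itgav, whose product binds vitronectin and latent TGF-beta, had 4 peaks with log2 changes from -0.37 to 0.21, and Itga5, the classical fibronectin receptor subunit, had 1 peak at -0.06. The 3 peaks of Itga3 ranged from 0.37 to 0.61, and the single peaks of Itga2b and Itga8 had 0.73 and 0.88, all with overlapping groups except the first Itga3 peak. Itga9, named after its values were seen, encodes alpha 9, which binds tenascin C. The first pair of its peaks had log2 changes of -0.24 and -0.34 and the second pair 0.71 and 0.51 (adjusted p 0.0842 to 0.515), and the difference between the pairs was not tested. With the batch as a block, the peak at 118897361 was called (adjusted p = 0.0331), as it was by DESeq2 (adjusted p = 0.0478). All but the first of these 4 also carry the symbol Gm10157 or Gm2415.

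Of 13 peaks of 4 integrin beta genes, 2 were called higher, both in Itgb5. Beta 5 pairs with alpha V and binds vitronectin. The peak at 33844928 to 33845101 on chromosome 16 measured 5.09, 4.16 and 5.84 CPM in control and 7.35, 8.95 and 9.99 CPM in cadmium samples (log2 change 0.80, SE 0.19, adjusted p = 0.0323). That at 33947626 to 33947959 measured 10.7, 13.3 and 13.1 CPM in control and 18.3, 20.5 and 20.8 CPM in cadmium samples (0.68, SE 0.15, adjusted p = 0.0272). Groups did not overlap at any of the 4 Itgb5 peaks, and the outer peaks, not called, had log2 changes of 0.60 and 0.54 (adjusted p = 0.106 and 0.0664). With the batch as a block the former was called (adjusted p = 0.0271). Removal of any control sample, or of cadmium replicate 2 or 3, ended the call at 33844928 (0.0531 to 0.162). The call at 33947626 ended on removal of control replicate 1 or 3, or of cadmium replicate 2 or 3 (0.0681 to 0.137).

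Itgb1 encodes the beta subunit shared by most matrix-binding integrins, and its 7 peaks overlapped between the groups throughout. Their log2 changes ran from -0.05 to 0.30, with adjusted p of 0.297 or more. The single peaks of Itgb3 and Itgb2l were low, with log2 changes of 0.27 and 0.07. Neither integrin-binding gene had a called peak: 0 of 4 peaks of Itgb1bp1 and Itgb3bp passed with edgeR, 0 had an unadjusted p below 0.05 and 0 passed with DESeq2. The higher of the Itgb3bp peaks lies in Pgm1, 100343 bp from Itgb3bp.

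Laminin chains had 25 peaks of 6 genes, of which 1, in Lamb1, was called higher. Lamb1 encodes the beta 1 chain found in laminins of many basement membranes. The called peak (chromosome 12, 31319961 to 31320067) measured 0.733, 1.1 and 0.702 CPM in control and 2.62, 1.65 and 1.70 CPM in cadmium samples. All cadmium samples exceeded the controls, cadmium replicate 1 the most, and the log2 change was 1.23 (SE 0.31, adjusted p = 0.0428, or 0.0529 with the batch as a block). Removing any cadmium sample, or control replicate 1 or 3, ended the call (0.054 to 0.131). The other peaks of Lamb1 had log2 changes of 0.77 and 0.88 (adjusted p = 0.109 and 0.0892).

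Lamc1, which encodes the gamma 1 chain that joins beta 1 in most laminins, had 8 peaks with log2 changes that were all above 0, from 0.11 to 0.58, and none was called (adjusted p 0.103 to 0.832). Of these 8 peaks, 3 had an unadjusted p below 0.05. Lama4, a chain of vessel walls, had 0.42 and 0.12 at its peaks, and Lamc3 had 0.85 and 0.35. The symbol Lamb3 stands for little of its own gene here: 7 of its 8 peaks lie outside it, 4 of them in Hsd11b1 and 1 in G0s2, and the single peak inside had a log2 change of -0.11.

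Lama1, named after its values were seen, encodes the alpha 1 chain and had peaks with log2 changes of opposite sign. Its lower-coordinate peak (chromosome 17, 67741415 to 67741524) measured 1.43, 3.01 and 1.74 CPM in control and 1.61, 0.543 and 0.74 CPM in cadmium samples. The groups overlapped through cadmium replicate 1, and the log2 change was -1.11 (SE 0.43, adjusted p = 0.155). The peak at 67822329 to 67822550 measured 1.02, 0.996 and 1.36 CPM in control and 1.42, 1.79 and 2.57 CPM in cadmium samples, with a log2 change of 0.78 (SE 0.30, adjusted p = 0.154). Neither difference passed the test.

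Peaks of nidogen 1 and perlecan rose, and no fibronectin peak was called. Nid1 encodes nidogen 1, which links laminin to collagen IV, and its 2 peaks were both called. The first (chromosome 13, 13437673 to 13437930) measured 5.85, 7.95 and 7.68 CPM in control and 16.1, 10.7 and 14.9 CPM in cadmium samples (log2 change 0.96, SE 0.20, adjusted p = 0.0195). The second (13510070 to 13510212) measured 0.978, 1.49 and 1.47 CPM in control and 5.08, 1.92 and 3.00 CPM in cadmium samples (1.34, SE 0.35, adjusted p = 0.0485, or 0.0751 with the batch as a block). At both peaks cadmium replicate 2 was nearest to the controls and cadmium replicate 1 farthest. The first call ended on removal of replicate 3 of either group or of cadmium replicate 1 (0.0519 to 0.0947), the second on removal of any control sample, or of cadmium replicate 1 or 3 (0.0847 to 0.131). Nid2, its relative, had 1 peak with a log2 change of 0.50 and overlapping groups.

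Hspg2 encodes perlecan, the heparan sulphate proteoglycan of basement membranes. Its second peak (chromosome 4, 137569555 to 137570082) measured 12.9, 16.3 and 15.4 CPM in control and 24.0, 21.2 and 22.3 CPM in cadmium samples. Every cadmium sample exceeded every control sample, at 1.52 times their level (log2 change 0.60, SE 0.15, adjusted p = 0.0424). Removing any cadmium sample, or control replicate 1 or 3, ended this call too (0.0717 to 0.159). Its other peaks had log2 changes of 0.28 and 0.57, also without overlap of the groups.

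Fn1 encodes fibronectin, a matrix and plasma protein that hepatocytes secrete, and stood at 330.0 CPM per kb of peak, the highest level per length among member genes without a shared peak. Its 15 peaks had log2 changes from -0.10 to 0.09, and 0 were called by edgeR or DESeq2 or had an unadjusted p below 0.05. The samples nevertheless differed within the groups. Summed over the 14 peaks beyond the lowest-coordinate one, Fn1 stood at 14.6, 8.83 and 12.8 times that first peak in control replicates 1 to 3 and at 14.0, 10.2 and 11.9 times in cadmium replicates 1 to 3. Replicate 2, which is batch 2 in both groups, was the lowest of its group each time.

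**Figure D2:**
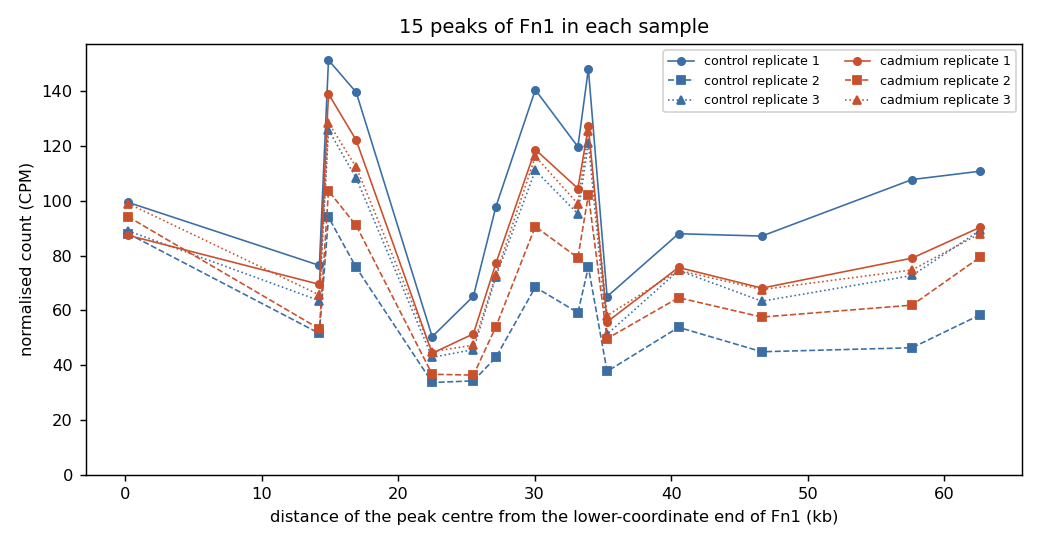
Normalised count (CPM) at the 15 peaks of Fn1 in each of the 6 samples, placed by the distance of the peak centre from the lower-coordinate end of the gene in kb. Lines of cadmium and control samples interleave, and replicate 2 is the lowest line of each group at all 14 peaks beyond the first.

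Over peaks, ADAMTS had the highest median of the families with more than 1 peak, a log2 change of 0.61 at 21 peaks of 8 genes. Of these peaks 3 were called higher, all in Adamts9. Over genes, on summed counts, the ADAMTS median was 0.42, below integrin alpha subunits (0.65) and the other matrix glycoproteins (0.51). Adamts9 encodes a secreted protease that cuts versican and aggrecan. Its peaks near the 3′ end (chromosome 6) measured 0.143, 0.259 and 0.159 CPM in control and 1.21, 0.525 and 0.849 CPM in cadmium samples at 92772808 to 92772916 (log2 change 2.17, SE 0.46, adjusted p = 0.0224). At 92772977 to 92773204 they measured 0.265, 0.378 and 0.317 CPM in control and 1.28, 0.651 and 1.70 CPM in cadmium samples (1.90, SE 0.42, adjusted p = 0.0258). These are few reads, 7 to 19 per control and 29 to 78 per cadmium sample. The remaining peak (92942301 to 92942469), which overlaps the opposite-strand gene 9530026P05Rik, measured 0.917, 0.916 and 1.09 CPM in control and 2.74, 1.72 and 3.00 CPM in cadmium samples (1.35, SE 0.28, adjusted p = 0.0211). At all 3 peaks every cadmium sample exceeded every control sample, and cadmium replicate 2 was the lowest of the cadmium samples. Removal of replicate 3 of either group or of cadmium replicate 1 ended the call at each of them. Removal of control replicate 1 did so at the first 2, and of control replicate 2 at the last 2 (0.0525 to 0.128 in all these cases).

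Adamts5, an aggrecan-cutting relative, had 5 peaks with log2 changes from 0.61 to 1.13, none called by edgeR (adjusted p 0.0737 to 0.232) and 2 called by DESeq2. The largest of them, at 85866567 to 85866672 on chromosome 16, measured 0.672, 0.518 and 1.04 CPM in control and 1.28, 1.63 and 1.96 CPM in cadmium samples. Control replicate 3 was the highest control sample at that peak and still below each cadmium sample. Adamts13, whose product cuts von Willebrand factor and comes from stellate cells in liver, had 1 peak at a log2 change of 0.003. Peaks of Adamts1, Adamts2, Adamts3 and Adamts15 had log2 changes between 0.11 and 0.84. Of the 4 peaks of Adamts7, the ADAMTS gene with the highest summed count, 2 lie outside the gene in Tbc1d2b, and all 4 were between -0.28 and 0.47. The single peak of Adamtsl2, whose product binds microfibrils, measured a log2 change of 0.81 (SE 0.23, adjusted p = 0.0681), and DESeq2 called it.

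ADAM genes had 14 peaks of 7 genes, 1 of them called, in Adam23. Adam23 encodes an ADAM that lacks protease activity and acts in adhesion. Its second peak (chromosome 1, 63595674 to 63595940) measured 2.22, 2.15 and 2.15 CPM in control and 3.57, 4.18 and 3.61 CPM in cadmium samples (log2 change 0.80, SE 0.19, adjusted p = 0.0312). The control samples were almost equal there, but the adjusted p rose to between 0.051 and 0.116 on removal of each of the 6 samples in turn. The first Adam23 peak overlapped between groups, with a log2 change of 0.48. The main surface sheddases were not called: Adam10, which cuts Notch, had -0.29 to 0.27 at 3 peaks, and Adam17, which releases TNF, had 0.09 to 0.40 at 3 peaks. Adam11, a relative without protease activity, had -0.63 at its peak, with all cadmium samples below the controls (adjusted p = 0.259). The 3 peaks annotated to Adam1a lie in Mapkapk5.

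MMP genes leaned lower, with a median log2 change of -0.22 over 12 peaks of 5 genes. None was called by edgeR, 4 had an unadjusted p below 0.05 and DESeq2 called 1, the first Mmp15 peak. Mmp15 encodes a membrane-anchored metalloproteinase (MT2-MMP), and its 4 peaks had log2 changes from -0.59 to -0.40. The first measured 40.5, 34.3 and 40.9 CPM in control and 25, 28.9 and 26.2 CPM in cadmium samples (-0.53, SE 0.15, adjusted p = 0.0604). No cadmium sample reached a control sample at 3 of the 4 peaks. Mmp14, the membrane protease that activates pro-MMP2, had 3 peaks between -0.25 and 0.05. The peaks of Mmp19 and Mmp24, all of which bear further symbols, ranged from -0.20 to 0.04. The Mmp11 peak (-0.23) lies in Chchd10 and bears that symbol too, so that 5 of the 12 MMP peaks are shared. Mmp2 had no peak among the 37118.

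TIMP peaks were not called in 4 of 4 cases (2 at an unadjusted p below 0.05 by edgeR, 0 with DESeq2). Timp2, the inhibitor that also takes part in pro-MMP2 activation, had log2 changes of 0.74 and 0.73 (adjusted p = 0.106 and 0.13). Its larger peak measured 3.79, 3.88 and 7.02 CPM in control and 9.27, 6.15 and 8.97 CPM in cadmium samples, so that control replicate 3 fell among the cadmium values. Timp3, the matrix-bound inhibitor, shares both peaks with Syn3 and had -0.36 and 0.10. Timp1 had no peak.

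**Figure D3:**
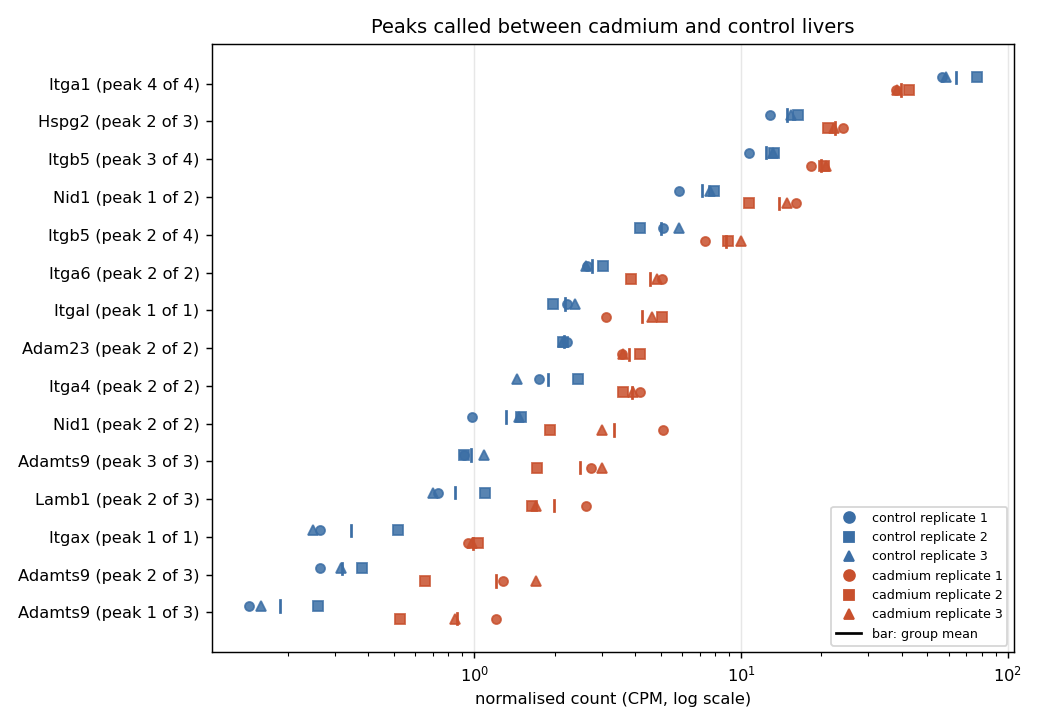
Normalised count (CPM, log axis) in each of 3 control and 3 cadmium samples at the 15 called member peaks, ordered by level, with a bar at each group's mean. Cadmium samples lie right of control samples at 14 peaks and left of them at the shared Itga1 peak, and no pair of groups overlaps.

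Counts of all peaks with the same symbol were then summed, which gives each gene 1 value per sample. Of the 50 member genes 11 were called, 9 higher and 2 lower, against 10.2% of all 13050 tested genes (5.98% higher and 4.18% lower). The median log2 change was 0.24 against -0.003 over all genes, 35 of 50 were above 0 and 21 (42%) had an unadjusted p below 0.05, against 26.7% of all genes. Adamts9 rose most, from 1.21, 1.36 and 1.38 CPM in control to 4.68, 2.51 and 4.83 CPM in cadmium samples (log2 change 1.60, SE 0.28, adjusted p = 0.00955). Adamts9 was the member gene called in all 6 leave-outs (adjusted p up to 0.0454). Nid1 rose from 6.22, 8.27 and 8.10 CPM to 19.0, 11 and 15.6 CPM (1.01, SE 0.21, adjusted p = 0.0185). Hspg2 rose from 18.3, 21.1 and 21.2 CPM to 31.3, 28.2 and 28.8 CPM (0.54, SE 0.12, adjusted p = 0.0228). Itgb5 rose from 66.9, 70.7 and 82.8 CPM to 111.3, 99.2 and 118.3 CPM (0.58, SE 0.13, adjusted p = 0.0226).

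Itga4 (0.98, adjusted p = 0.0276), Itgax (1.49, 0.0297), Itgal (0.94, 0.03), Lamb1 (0.90, 0.031) and Itga6 (0.65, 0.0389) made up the other rises on summed counts, given as log2 change and adjusted p. With the batch as a block, Itga6 was at 0.0524. Mmp15, called here and not at single peaks, went from 86.3, 70.6 and 77.4 CPM in control to 52.7, 59.9 and 53.3 CPM in cadmium samples (-0.50, SE 0.12, adjusted p = 0.0312). All cadmium samples were below all controls. Itga1 was lower as well (-0.54, SE 0.12, adjusted p = 0.0262), but most of its reads lie in the peaks shared with Pelo. From its single-symbol peaks alone, with log2 changes of 0.02 and -0.05, its adjusted p was 0.844. Close to the threshold and not called were Adamts5 (0.74, adjusted p = 0.0634), Adamtsl2 (0.80, 0.0672) and Timp2 (0.72, 0.0812). Adam23 (0.51, adjusted p = 0.18) and Adam11 (-0.65, 0.202) were not called either, nor was Lamc3 (0.66, 0.291). With the batch as a block, Timp2 (adjusted p = 0.0494) and Adam23 (adjusted p = 0.038) were called.

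Genes of central roles that were not called on summed counts, with small log2 changes, included Itgb1 (log2 change 0.04), Itgav (0.11), Itga5 (-0.08), Fn1 (-0.02), Mmp14 (0.01), Adam10 (0.09), Adam17 (0.16) and Adamts13 (-0.01). Their SE ranged up to 0.29, that of Adamts13. Lamc1 had 0.32 (adjusted p = 0.146) with no overlap of the groups. Per kb of peak, Itgb1 (79.5 CPM) and Itgb5 (72.6 CPM) were the highest integrin levels, and Nid1 (28.5 CPM), Hspg2 (26.3 CPM) and Lamc1 (17.3 CPM) lay well below Fn1.

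The summed calls also changed when single samples were left out, and no share of all genes is set beside these counts. Leaving out cadmium replicate 3 left 1 called member gene, Adamts9, and leaving out control replicate 1 left 2, Adamts9 and Itga1. The count was 5 without cadmium replicate 1 or control replicate 3, 6 without control replicate 2 and 8 without cadmium replicate 2. Removal of control replicate 1 or of cadmium replicate 3 ended the calls of Nid1 (adjusted p 0.0521 to 0.0731), Itgb5 (0.0524 to 0.11) and Hspg2 (0.057 to 0.0901). Itgb5 was also lost on removal of control replicate 2 and Hspg2 on that of control replicate 3, within the same ranges. Mmp15 lost its call on removal of replicate 1 or 3 of either group (0.0775 to 0.143). The other 6 genes kept theirs on removal of a single library only: control replicate 1 for Itga1, control replicate 2 for Itga4 and Itgax, cadmium replicate 2 for Itga6 and Lamb1, and cadmium replicate 1 for Itgal (0.0515 to 0.148 otherwise).

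**Figure D4:**
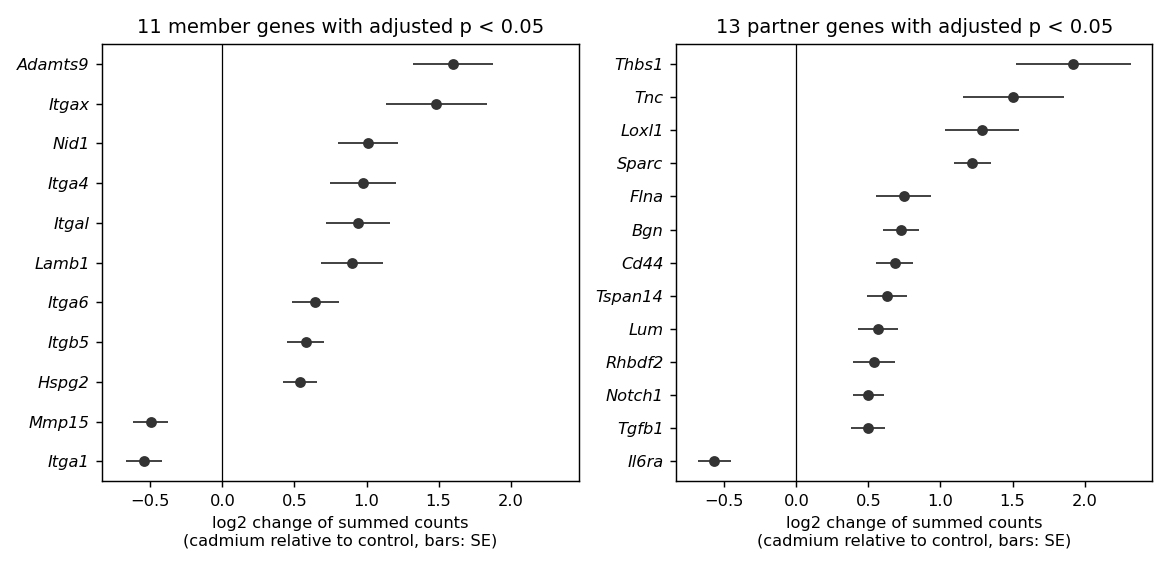
Log2 change of counts summed over all peaks of a gene, cadmium relative to control, with SE bars (n = 3 per group), for the 11 called member genes (left) and the 13 called partner genes (right). In the left panel 9 genes lie right of the line at 0, led by Adamts9 at 1.60, and in the right panel 12 of 13, led by Thbs1 at 1.92.

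Peaks that carry the same symbols were not found to change apart. Of 109 member peaks that could be set against other peaks with the same symbols (diffSpliceDGE), 0 departed after adjustment. Among all peaks tested so, 0.0296% were called. The smallest adjusted p of the members was 0.999991. An unadjusted p below 0.05 was found at 3 of them, and at 1.02% of all peaks tested so. The 3 were both Lama1 peaks described above and a Lamb3-labelled peak in Hsd11b1. The test compares peaks with the same symbols, so it bears on a change limited to a single peak and not on one that all these peaks share. The shared peaks of Itga1 and the shared Adamts9 peak were not set against the single-symbol peaks of their gene. Low p-values were rare over all peaks in this test, so 0 calls do not show that the peaks of a gene moved alike.

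Positions were read from the RefSeq genes, since m6A is known to be frequent toward the 3′ end of transcripts. Of 123 peaks inside their own RefSeq gene, 74 belong to genes whose strand the tables give, and 44 of these (59.5%) had their centre within 5000 bp of the 3′ end, against 45.3% of all peaks with a single symbol. Within 1000 bp of the 5′ end lay 10 (13.5%, against 10.9%). Of the 13 called peaks with a known strand, 7 were near the 3′ end and 1 near the start, the first of Nid1. The closest to the 3′ end were those of Adamts9, 163.0 and 391.5 bp from it, Itgax, 216 bp, and Adam23, 304 bp. The 28 peaks that bear further symbols had a median log2 change of -0.06, and the 111 with a member symbol alone had 0.26.

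Genes that work with the members were taken from a list of 100 partners, of which 77 had a peak. The list was chosen with earlier results of these data known, so its shares are not independent of them. On summed counts 12 were called higher and 1 lower, with a median log2 change of 0.29 and 64 of 77 above 0, where 10.2% of all genes were called and the median of all was -0.003. The matrix glycoproteins and their modifiers gave 7 of the rises among 21 measured. Thbs1, thrombospondin 1, an activator of latent TGF-beta, measured 0.594, 0.698 and 1.91 CPM in control and 3.86, 3.41 and 4.78 CPM in cadmium samples (log2 change 1.92, SE 0.40, adjusted p = 0.0185). Sparc, a collagen-binding protein, measured 6.70, 7.34 and 7.62 CPM in control and 17.1, 16.7 and 16.7 CPM in cadmium samples (1.22, SE 0.13, adjusted p = 0.0013). Sparc and Bgn (0.73), which encodes biglycan, were called in all 6 leave-outs. Tnc, tenascin C (1.51), Loxl1, an elastin cross-linker (1.29), Lum, lumican (0.57), and Tgfb1 (0.50) completed the 7.

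Of 20 measured focal adhesion genes 1 rose, the actin linker Flna (log2 change 0.74), and of 8 measured receptors and proteoglycans 1, the hyaluronan receptor Cd44 (0.68). Among 13 protease partners Tspan14 (0.63), a tetraspanin of ADAM10, and Rhbdf2 (0.54), the iRhom that escorts ADAM17, rose. Of 15 measured shedding substrates Notch1 (0.50) rose and Il6ra (-0.57) fell. Il6ra encodes the interleukin 6 receptor and measured 188, 202 and 182 CPM in control and 122, 123 and 140.3 CPM in cadmium samples (adjusted p = 0.0169). The adjusted p of the other named partners lay between 0.00996 and 0.0495. Without cadmium replicate 3 the partner calls were 2, Sparc and Bgn, so that Thbs1 (adjusted p = 0.0734), Loxl1 (0.0696), Cd44 (0.0834) and the rest were lost. Without control replicate 3 they were 8. Il6ra was also lost on removal of cadmium replicate 2 (0.0524 to 0.0535), Notch1 of control replicate 3 (0.0753 to 0.0768), and Tnc of cadmium replicate 1 or control replicate 2 (0.0538 to 0.109). Flna kept its call only on removal of cadmium replicate 2 and Lum only of control replicate 2. Tgfb1 and Rhbdf2 kept theirs on removal of cadmium replicate 1 or control replicate 2, and Tspan14 of cadmium replicate 2 or control replicate 3 (0.0506 to 0.19 otherwise).

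Cell type markers, also chosen with earlier results known, were read beside these genes on the same summed counts. Of 7 measured stellate cell markers 4 were higher (Col1a1, log2 change 2.25, Col3a1, 1.90, Pdgfrb, 0.76, and Lrat, 0.58, which shares its peaks with another symbol), and Acta2 had no peak. Their summed level was 113.4 to 144.3 CPM in control and 178.0 to 220.9 CPM in cadmium samples. Of 6 endothelial markers Lyve1 was higher (1.16), with sums of 211 to 288 and 230.3 to 304 CPM that overlapped. Of 5 measured Kupffer cell and macrophage markers Lyz2 was higher (1.56) and Cd163 lower (-2.57), with sums of 121 to 148 and 136.0 to 169 CPM, while Adgre1, Cd68 and Timd4 had no peak.

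Lymphocyte markers measured were Cd3e and Ptprc, the latter found on all leukocytes, 2 of 8, with 0 called by edgeR or DESeq2, 1 at an unadjusted p below 0.05 and sums of 1.99 to 2.58 CPM in control and 2.90 to 4.13 CPM in cadmium samples. Of 5 cholangiocyte markers 3 were measured and 0 called by edgeR or DESeq2, though all 3 had an unadjusted p below 0.05, and Krt19 and Krt7 had no peak. Their sums were 78.4 to 99.99 CPM in control and 73.6 to 262.6 CPM in cadmium samples. The liver label was checked on 6 hepatocyte markers, which summed to 15472 to 17956 CPM in control and 14753 to 17404 CPM in cadmium samples, with 0 called by edgeR, 1 at an unadjusted p below 0.05 and 1 called by DESeq2. No marker of neutrophils, platelets or mesothelium had a peak. Beside Nid1, Lamb1, Hspg2 and Adamts9, 4 of 7 measured stellate markers were thus higher. Des, Reln and Dcn were not called (adjusted p 0.187 to 0.648). Of the 6 measured endothelial markers, Lyve1 was higher beside them too (log2 change 1.16). Beside Itga4 and Itgal, Cd3e had overlapping groups (log2 change 0.81, adjusted p = 0.356) and Ptprc did not pass the test (0.57, adjusted p = 0.117). Beside Itga4 and Itgax, the macrophage markers Lyz2 (1.56) and Cd163 (-2.57) were called in opposite directions. Clec4f, Csf1r and Vsig4 were not called (adjusted p 0.0807 to 0.462). The part of cell numbers in the members' differences was not tested.

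**Figure D5:**
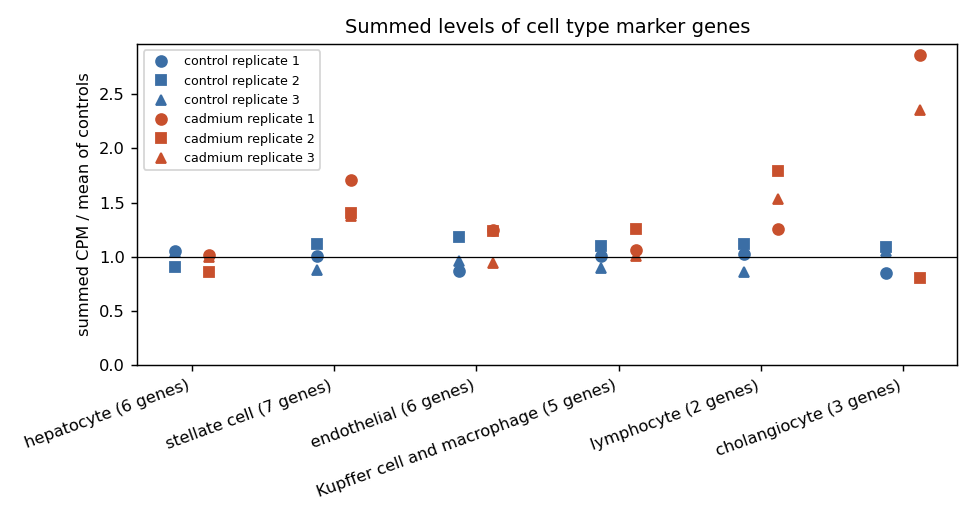
Summed CPM of the measured marker genes of 6 liver cell types in each sample, divided by the mean of the 3 control samples. The stellate and lymphocyte sums of all cadmium samples lie above all controls, hepatocyte sums lie near 1 in both groups, and 1 cadmium sample falls below the controls for cholangiocytes.

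The authors' deposited table calls 9 member peaks Up and 1 Down, against 2.66% and 1.58% of all peaks. Its Up calls are 3 peaks of Adamts9, 2 of Adamts5 and 1 each of Itga4, Itgax, Lamb1 and Nid1, and its Down call is the first peak of Lama1. At all 37118 peaks the authors' deposited table's call equals an unadjusted p below 0.05 with an absolute log2 change above 1. It therefore leaves out smaller changes, such as those of Itgb5, Itga6, Itgal, Hspg2, Adam23 and the first Nid1 peak. It takes in Lama1 and Adamts5 peaks whose adjusted p by edgeR was above 0.05. The authors' own adjusted p (DESeq2) was 0.0307 and 0.0493 at the Adamts5 peaks and 0.0638 at the Lama1 peak.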

How the data were processed

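RNA of 6 immunoprecipitated (IP) and 6 input libraries was sequenced, and only the IP libraries were analysed here. Per the labels, fragments bound by the m6A antibody form the IP libraries and unbound fragments are called input. Per the submitters' processing notes, the build was mm10 and the tools named, with no order, are DESeq2 4.1.0, MACS2 2.1.1, STAR 2.7.1a, cutadapt 1.1.8 and SAMtools 1.3.1. The deposited table holds raw counts per peak of a common peak set in the 6 IP libraries, which its numbered columns were matched to by their labels. It also holds the authors' log2 fold changes and the authors' p-values and adjusted p-values. The sources used here do not state whether counting used strand.

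Members and gene lists (families, 100 partners in 5 groups, markers of 9 cell types) were chosen with earlier results of these data known. The test of peaks was that of edgeR 4.0.16 (R 4.3.3), with TMM factors, filterByExpr (minimum count 10, minimum total 15), the quasi-likelihood F test and Benjamini-Hochberg adjustment over all tested peaks, called at 0.05. The biological coefficient of variation was 19.4% for peaks and 17.1% for genes. SE is the absolute log2 change over the root of F, and CPM uses TMM-scaled library sizes. Counts of all peaks with a symbol were summed per gene, so that a shared peak counts for each of its symbols, and CPM of summed genes stands on a slightly different scale. Peaks were set against others with the same symbols by diffSpliceDGE. DESeq2 1.42.0 was an alternative and was within 5.5e-10 of the authors' log2 values. The script was tested on simulated data. Samples of the same batch deviated together (correlations 0.16, 0.232 and 0.196, against -0.19 to 0.0175 across batches), and the labels name the numbers batches, so the batch block is read as a pairing. Replicates differed beyond counting noise (chi-square per degree of freedom 31.9 to 161.5).

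Genes named are those called, in each family the highest in CPM and the 2 with the largest change on summed counts, genes of set roles, and all called partners. Others are said to be named after their values were seen or are given by range. Gene positions and promoter windows come from RefSeq tables of GRCm38.p6. Base content of peaks was not analysed here.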

Additional observations from a re-analysis of the deposited data

How the results depend on the processing

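DESeq2 called 23 member peaks (20 higher, 3 lower). Member peaks called over the leave-outs numbered 0 to 8, called member genes 1 to 8 and called partner genes 2 to 11, each named by library above. Of the alternative settings, the share of all peaks called is given above only for DESeq2 and without cadmium replicate 3. With the replicate block, 14 member peaks were called, 12 of them shared with the fit without it, along with 12 member genes (10 shared, with Adam23 and Timp2 added) and 14 partner genes (Fgg added, adjusted p = 0.0472). The block ended the calls given above for Itga6, Lamb1 and the second Nid1 peak and added peaks of Itga9 and Itgb5. RLE size factors, upper-quartile factors, no filter, a mean CPM of 1 or more, leaving out the 2 most abundant peaks and single-symbol peaks gave 12 to 16 member peaks and 10 to 12 member genes. RLE ended the call of Rhbdf2. Of the values of named peaks and genes, 390 kept direction and side of the threshold, 150 kept direction only, 144 of those in leave-outs, and 0 reversed. Peaks departing from others with the same symbols numbered 0 under all alternatives run. The scalings moved the median log2 change of all peaks to 0.04 at most. With 3 samples per group and few reads at peaks such as those of Adamts9 and Itgax, small changes at low peaks were not detectable at this depth. The planned count of GGAC and of the m6A consensus was not run, since no genome was used here.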
